A study of Rattus norvegicus with 30 samples.

Results

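Hearts of rats exposed to ischaemia without preconditioning (ISCH, 5 arrays) were set against control hearts (CTL, 5 arrays). These are 10 of the 30 Affymetrix arrays of a study of preconditioning, and they were chosen by the group named in each array's title. RNA came from the left ventricle, the main pumping chamber, and the 5 arrays of a group are biological replicates. The label of ISCH reads ischemia, and the keywords of the series speak of ischemia followed by reperfusion. A trigger group of ischemic preconditioning (IPC_TRI) and a trigger group of anesthetic preconditioning (APC_TRI), of 5 arrays each, serve below as a further comparison. The labels give no strain, age, sex, anaesthetic or duration for any group, and no treatment shared by all groups.

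Ischaemia is a lack of blood flow that deprives heart muscle of oxygen and fuel, and reperfusion is the return of flow. Within minutes to hours a stressed heart is known to switch on early transcription factors and heat shock chaperones, which hold damaged proteins in a soluble state. Injured vessels and muscle are also known for inflammatory genes, of which many depend on the transcription factors NF-kappaB and the interferon-regulated STAT and IRF proteins. Working heart muscle lives mainly on fatty acids burned in mitochondria, and its contraction is set off by calcium released from internal stores.

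Signals below are the deposited intensities, on a linear scale, listed by replicate number. Changes are ISCH minus CTL on the log2 scale ± standard error (SE), from quantile-normalized log2 signals with 5 arrays per group, and a gene was called at a Benjamini-Hochberg adjusted p under 0.05 in limma. Of 5244 probe sets tested, 460 were called (8.77%), 207 higher and 253 lower in ISCH. By gene, 107 of 3155 rose (3.39%) and 155 fell (4.91%), and 45 of the risen and 62 of the fallen changed at least 2-fold. For 306 genes (9.7%) the 5 normalized ISCH values all lay outside the range of the 5 CTL values. The median change of all genes was -0.01, and 49.0% of genes lay above 0. The shares of 3.39% and 4.91% are the yardstick for the gene lists below, since a list with similar shares did not stand apart from the rest of the array.

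The 2 groups differed in signal quality as well as in protocol. Bacterial control transcripts averaged 11.1 to 12.8 on the log2 scale in ISCH arrays and 9.97 to 11.7 in CTL arrays. The brightest 1% of probe sets held 33.6% to 44.3% of the signal in ISCH and 27.5% to 35.1% in CTL. Mean correlation with the other arrays of the group was 0.905 in ISCH 1 and up to 0.946 in the other ISCH arrays, against 0.952 to 0.965 in CTL. The beta-actin 3′ to 5′ log2 ratio, a measure of RNA integrity, was 0.25 to 0.42 in ISCH and -0.31 to 0.31 in CTL. The same ratio of Gapdh was -0.22 to 0.22 in ISCH and -0.24 to 0.01 in CTL. The part of these differences in the results was not separated from that of the protocol. Bacterial control transcripts are added to every sample before hybridisation in the standard procedure. With their signal as a covariate 157 probe sets were called instead of 460, and the paragraphs below name genes whose calls ended in that fit. The cardiomyocyte genes Tnnt2 (37592 ± 11316 in ISCH and 27734 ± 7142 in CTL, mean ± SD, n = 5) and Tnni3 (39157 ± 9523 in ISCH and 27234 ± 4304 in CTL) gave signal in both groups, and the atrial light chain gene Myl7 had 328 ± 134 in ISCH and 406 ± 145 in CTL. Signals of different probe sets cannot be set against each other, so these values do not show which chamber was sampled. RNA was taken from whole tissue, so fewer cells of a type and less RNA per cell cannot be told apart in any result below.

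**Figure D1:**
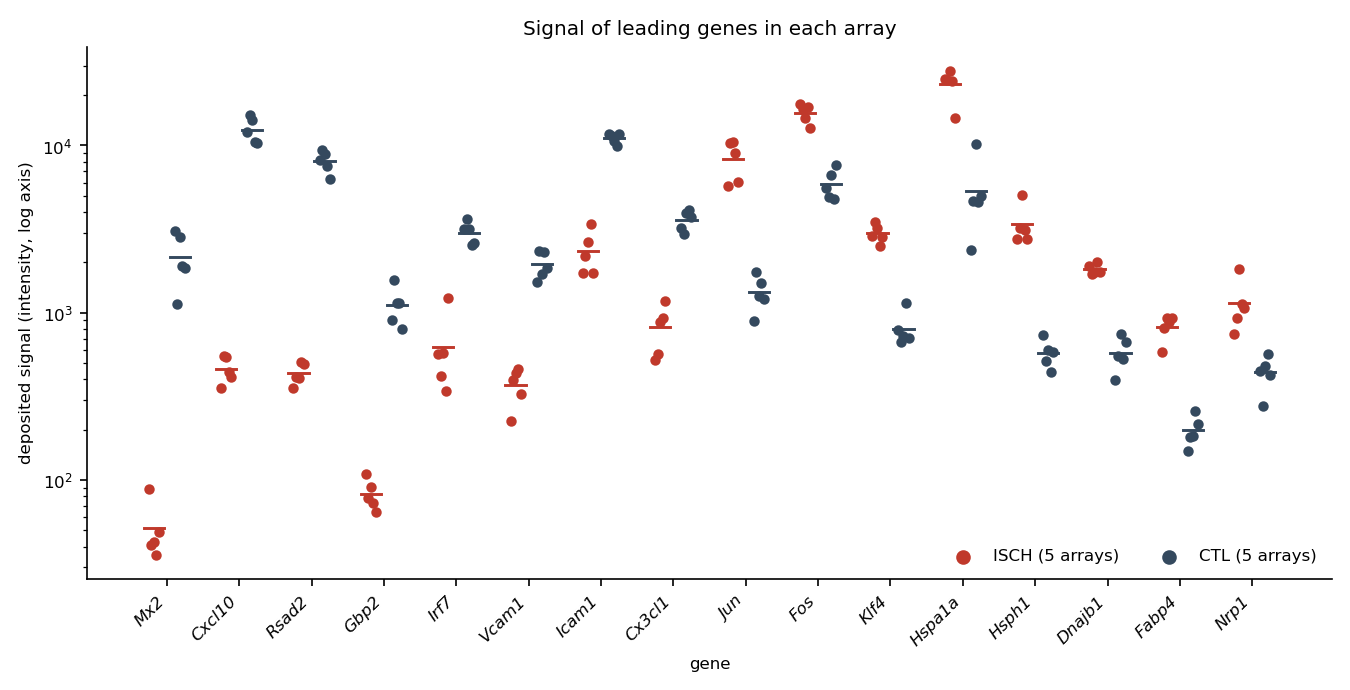
Deposited signal (log axis) of 16 genes in each of the 5 ISCH arrays (red, left) and the 5 CTL arrays (blue, right), with bars at the group means. The 8 genes on the left are lower in every ISCH array than in any CTL array, and the 8 on the right are higher.

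Interferon-induced genes had the largest share of called members among the 48 gene lists described here. Of 15 tested, 13 fell, 0 rose and 2 were not called (median -2.34), a share of 86.7% against 4.91% of all genes. Mx2, an interferon-induced GTPase, had signals of 88.3, 40.8, 42.8, 35.6 and 48.9 in ISCH hearts, against 3097, 1132, 2835, 1903 and 1844 in CTL hearts. The groups did not overlap, and the fall was 31.6-fold (-4.98 ± 0.51, adjusted p = 4.3e-08). Rsad2, which encodes the antiviral enzyme viperin, had 354, 416, 408, 508 and 495 in ISCH hearts and 8135, 9454, 8845, 7558 and 6316 in CTL hearts. Its groups did not overlap either, with an 18.5-fold fall (-4.21 ± 0.30, adjusted p = 1.5e-11). Gbp2, a guanylate-binding GTPase, had 108, 77.8, 90.5, 72.7 and 64.6 in ISCH hearts and 901, 1566, 1136, 1138 and 803 in CTL hearts, 11.3-fold lower (-3.50 ± 0.26).

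Transcription factors of the interferon response were among the fallen genes. Irf7, the factor that amplifies interferon production, had 566, 416, 571, 340.1 and 1229.9 in ISCH hearts and 3176, 3615, 3148, 2534 and 2597 in CTL hearts (-2.33 ± 0.35, adjusted p = 2.1e-05). ISCH 5 was the highest of its group and still below every CTL array. Stat2, a subunit of the complex that carries the interferon signal to DNA, had 224, 117, 145, 136 and 194 in ISCH hearts and 849.6, 1034, 937, 737 and 757 in CTL hearts (-2.32 ± 0.30, adjusted p = 1.6e-06). Irf1, another factor of the family, had 357, 1129.8, 1118, 1265 and 1228 in ISCH hearts and 5132, 6566, 4818, 5322 and 4385 in CTL hearts (-2.46 ± 0.31), with ISCH 1 well below the other ISCH arrays. Eif2ak2, the kinase PKR that stops translation on sensing double-stranded RNA, fell by 2.34 ± 0.32 (adjusted p = 3.9e-06). Mx1 (-2.97), Irgm2 (-2.83) and Gch1 (-2.46) were the other members that the naming rule picked. Oas1a (-1.61), Ifitm3 (-1.43) and the interferon gamma receptor gene Ifngr1 (-1.29) were named after their values were seen. The 2 members not called were the receptor gene Ifnar1 (0.02 ± 0.28) and the RNA-editing gene Adar (-0.86 ± 0.43). The calls of Mx2, Rsad2, Gbp2, Irf7, Stat2, Irf1, Eif2ak2, Mx1, Irgm2 and Gch1 held with each array left out in turn and in every other alternative fit.

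The interferon-stimulated response element (ISRE) is the DNA element that STAT and IRF proteins bind. Its core was searched for as GAAANNGAAA, or TTTCNNTTTC on the other strand, in windows of 250 bases before to 50 after the gene start, taken from RefSeq for the rat build GRCr8. Of the 13 fallen genes 12 had a window, Mx2 being without one, and 7 of the 12 held a match. The core was present in 3.92% of all 33469 windows and in 3.21% of the 2800 windows of genes tested here. A match is a description of the letters and not a measured site. The 160 bases running from 150 before to 10 after the start are shown for the 7 genes, because these windows carry the element named for the list with the lowest median. Capitals mark the core, in Oas1a a pair of overlapping matches.
Rsad2: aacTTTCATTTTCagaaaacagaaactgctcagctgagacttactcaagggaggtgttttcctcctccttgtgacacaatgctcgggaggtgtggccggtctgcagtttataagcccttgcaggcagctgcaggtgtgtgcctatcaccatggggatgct
Irf7: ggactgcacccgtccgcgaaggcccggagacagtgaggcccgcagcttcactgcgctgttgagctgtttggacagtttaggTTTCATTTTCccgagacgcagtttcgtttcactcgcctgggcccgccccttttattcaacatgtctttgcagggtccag
Eif2ak2: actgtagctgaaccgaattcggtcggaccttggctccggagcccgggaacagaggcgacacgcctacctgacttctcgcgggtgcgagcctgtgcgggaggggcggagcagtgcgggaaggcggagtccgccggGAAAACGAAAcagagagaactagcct
Gbp2: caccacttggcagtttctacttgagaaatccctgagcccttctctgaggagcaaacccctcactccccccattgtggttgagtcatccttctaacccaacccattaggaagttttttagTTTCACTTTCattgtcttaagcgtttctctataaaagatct
Irgm2: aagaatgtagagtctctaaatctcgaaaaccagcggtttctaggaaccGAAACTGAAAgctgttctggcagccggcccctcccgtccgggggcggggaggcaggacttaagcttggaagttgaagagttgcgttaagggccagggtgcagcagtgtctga
Oas1a: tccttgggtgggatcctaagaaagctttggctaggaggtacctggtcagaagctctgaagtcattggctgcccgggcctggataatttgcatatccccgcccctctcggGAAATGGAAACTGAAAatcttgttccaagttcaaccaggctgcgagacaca
Ifitm3: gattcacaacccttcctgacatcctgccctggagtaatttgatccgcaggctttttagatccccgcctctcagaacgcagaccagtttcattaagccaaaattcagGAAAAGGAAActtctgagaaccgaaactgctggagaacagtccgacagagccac
These stretches lie on GRCr8 at chr6:48788111-48788270, minus strand (Rsad2), chr1:205800014-205800173, minus strand (Irf7), chr6:21941004-21941163, plus strand (Eif2ak2), chr2:234005577-234005736, plus strand (Gbp2), chr10:42889820-42889979, plus strand (Irgm2), chr12:41330316-41330475, plus strand (Oas1a) and chr1:205541749-205541908, minus strand (Ifitm3), each read along the strand of its gene.

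Antigen presentation genes fell in part. Of 20 tested, 7 fell and 0 rose (median -0.14), a share of 35.0% against the 4.91% of all genes. Interferon is known to induce the peptide pump and the special subunits of the immunoproteasome, and both are among the fallen. Tap1, a subunit of the peptide transporter, had 516, 532, 613, 493 and 697 in ISCH hearts and 1482, 2290.5, 2284, 1099 and 1342 in CTL hearts (-1.44 ± 0.30, adjusted p = 0.0013). Its groups did not overlap. The immunoproteasome gene Psmb8 had 417, 601, 612, 462 and 522 in ISCH hearts and 1090.5, 1422, 1217, 1184 and 1079 in CTL hearts (-1.13 ± 0.22), also without overlap. Psme2, an activator subunit of the proteasome, fell by 1.24 ± 0.21, the transporter gene Tap2 by 0.74 ± 0.19, and the class I heavy chain genes RT1-M3-1 by 1.39 ± 0.28 and RT1-S3 by 1.17 ± 0.23. Class I genes are near-identical copies, so probes of one may read another. The bright light chain gene B2m (9818 ± 1682 in ISCH, 9807 ± 1295 in CTL, mean ± SD, n = 5) gave -0.14 ± 0.15 and the activator gene Psme1 0.38 ± 0.20, neither called. Of 26 proteasome and ubiquitin genes 0 were called in either direction (limma, median -0.10), and 2 higher and 3 lower had an unadjusted p under 0.05. Calls of Psmb8, Tap2 and RT1-M3-1 ended with the added-transcript covariate.

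Chemokines and cytokines are signals by which tissue calls in white blood cells, and those called were all lower in ischaemic hearts. Of 10 chemokine genes 6 fell and 0 rose (60%, median -1.43), and of 26 genes of cytokines, their receptors and NF-kappaB feedback 11 fell and 0 rose (42.3%, median -0.77). Cxcl10, a chemokine that attracts T cells, had 354, 553, 544, 441 and 410.5 in ISCH hearts, against 12083, 15134, 14288, 10419 and 10318 in CTL hearts. The highest ISCH array was far below the lowest CTL array, a 29.3-fold fall (-4.87 ± 0.31, adjusted p = 1.7e-12). Ccl2, which draws monocytes, had 1622, 2827, 4147, 3807 and 4157 in ISCH hearts and 10617, 13590.2, 11788, 9910 and 11226 in CTL hearts (-1.91 ± 0.22, adjusted p = 2e-07). Cx3cl1, or fractalkine, a chemokine tethered to endothelium, had 524, 566, 882, 934 and 1181 in ISCH hearts and 3189.7, 2947, 3931, 4114 and 3758 in CTL hearts (-2.14 ± 0.32, adjusted p = 2.1e-05). For both genes the groups did not overlap. Ccl3 (-2.14) and Ccl4 (-2.03), chemokines of macrophages, fell too. Cxcl2 (-0.94), a neutrophil chemokine, had 1 CTL array (CTL 3, 375) inside the ISCH range of 227 to 546. Its call was lost in 4 of 10 fits that left out 1 array (-0.70 without ISCH 1). Cxcl6 (-0.11 ± 0.19) and the receptor gene Cxcr4 (0.08 ± 0.14) were not called.

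Cd40, a receptor through which T cells activate other cells, had 100.5, 22.2, 73.5, 45.7 and 62.5 in ISCH hearts and 655, 537, 549.7, 396 and 463 in CTL hearts. The groups did not overlap (-2.91 ± 0.39, adjusted p = 3.1e-06). Il1a, an interleukin released by injured cells, had 284, 144, 218, 284 and 224 in ISCH hearts and 1009, 1037, 1582, 756 and 1207 in CTL hearts (-2.18 ± 0.24, adjusted p = 1.4e-07). Nfkbia, the inhibitor that NF-kappaB induces to limit itself, had 1998, 2202, 2070, 2264 and 1881 in ISCH hearts and 4075, 4666, 4464, 3511 and 4586 in CTL hearts, 2.02-fold lower with tight replicates (-1.01 ± 0.14, adjusted p = 6.3e-06). Nfkb1, which encodes a subunit of NF-kappaB, fell by 0.85 ± 0.15. Il15 (-1.72), Il1b (-1.31), the endotoxin receptor gene Cd14 (-0.88) and the transcription factor gene Cebpd (-1.81, with another probe set at 0.00) fell as well. Lcn2 (-1.55), an iron-binding protein of acute inflammation, Tnf (-1.35) and the macrophage growth factor gene Csf1 (-1.25), named after their values were seen, complete the 11. Il4r (-0.12 ± 0.17) and Cebpb (-0.57 ± 0.26) were the brightest members not called, but a second Cebpb probe set was called lower at -1.29. Calls of Il15, Cebpd and Cxcl2 ended with the added-transcript covariate.

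Genes of the vessel wall split. Of 20 genes of endothelial adhesion and vascular tone 5 rose (25.0%) and 4 fell (20%), both above the background shares. All 4 that fell are adhesion molecules for white blood cells. Icam1 had 1731, 2198, 2644, 3376 and 1728 in ISCH hearts and 11698, 11394, 10566, 9909 and 11665 in CTL hearts (-2.36 ± 0.28, adjusted p = 3.5e-07). Vcam1 had 224, 399, 436, 458 and 325 in ISCH hearts and 1531, 2331, 1708, 2310.1 and 1864 in CTL hearts (-2.38 ± 0.26, adjusted p = 7.9e-08). For both the groups were far apart. The selectin genes Selp and Sele fell by 1.94 ± 0.27 and 2.22 ± 0.42. Among the risen, Thbd, the anticoagulant receptor thrombomodulin, had 765, 1162, 1361, 1283 and 1078 in ISCH hearts and 727, 526, 714, 739 and 1023 in CTL hearts, and ISCH 1 lay inside the CTL range (0.66 ± 0.16, adjusted p = 0.0077). Egfl7, a protein secreted by endothelium, had 1098, 478, 324, 563 and 369 in ISCH hearts and 73.7, 194, 183, 134 and 189.5 in CTL hearts (1.68 ± 0.36), with ISCH 1 the highest. Ptgis, the synthase of the vasodilator prostacyclin, had 524, 410.2, 611, 638 and 587 in ISCH hearts and 352, 262, 347, 338 and 319 in CTL hearts (0.75 ± 0.20). Ece1, the enzyme that makes endothelin, rose by 0.52 ± 0.15 and the natriuretic peptide receptor gene Npr1 by 0.52 ± 0.17, with another probe set at -0.10. Leaving out 1 array ended the calls of Ece1 (4 of 10 fits, 0.42 without ISCH 1) and Npr1 (8 of 10 fits, 0.41 without CTL 2). The general endothelial marker Pecam1 (-0.17 ± 0.20) and the caveolin gene Cav1 (0.19 ± 0.26) were not called. With the added-transcript covariate the calls of Sele, Egfl7, Ptgis, Ece1 and Npr1 ended, and with median centring those of Thbd, Ece1 and Npr1. Among 12 alternative fits other than leaving out 1 array, Npr1 lost its call in 9 and Ece1 in 4. A site of NF-kappaB was searched for as GGGANTTTCC or GGAAANTCCC in the promoter windows. It was held by 0 of 3 windows of fallen chemokines and 0 of 3 of fallen adhesion genes. Among uncalled chemokines 1 of 3 windows held it, that of Cxcl6. It was found in 0.362% of all windows and 0.429% of those of genes tested here. The windows of Vcam1 and Cxcl2 hold the similar letters GGGATTTCCC, which this search did not count. Windows were too few and the letters too narrow for these counts to say anything of the factor.

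**Figure D2:**
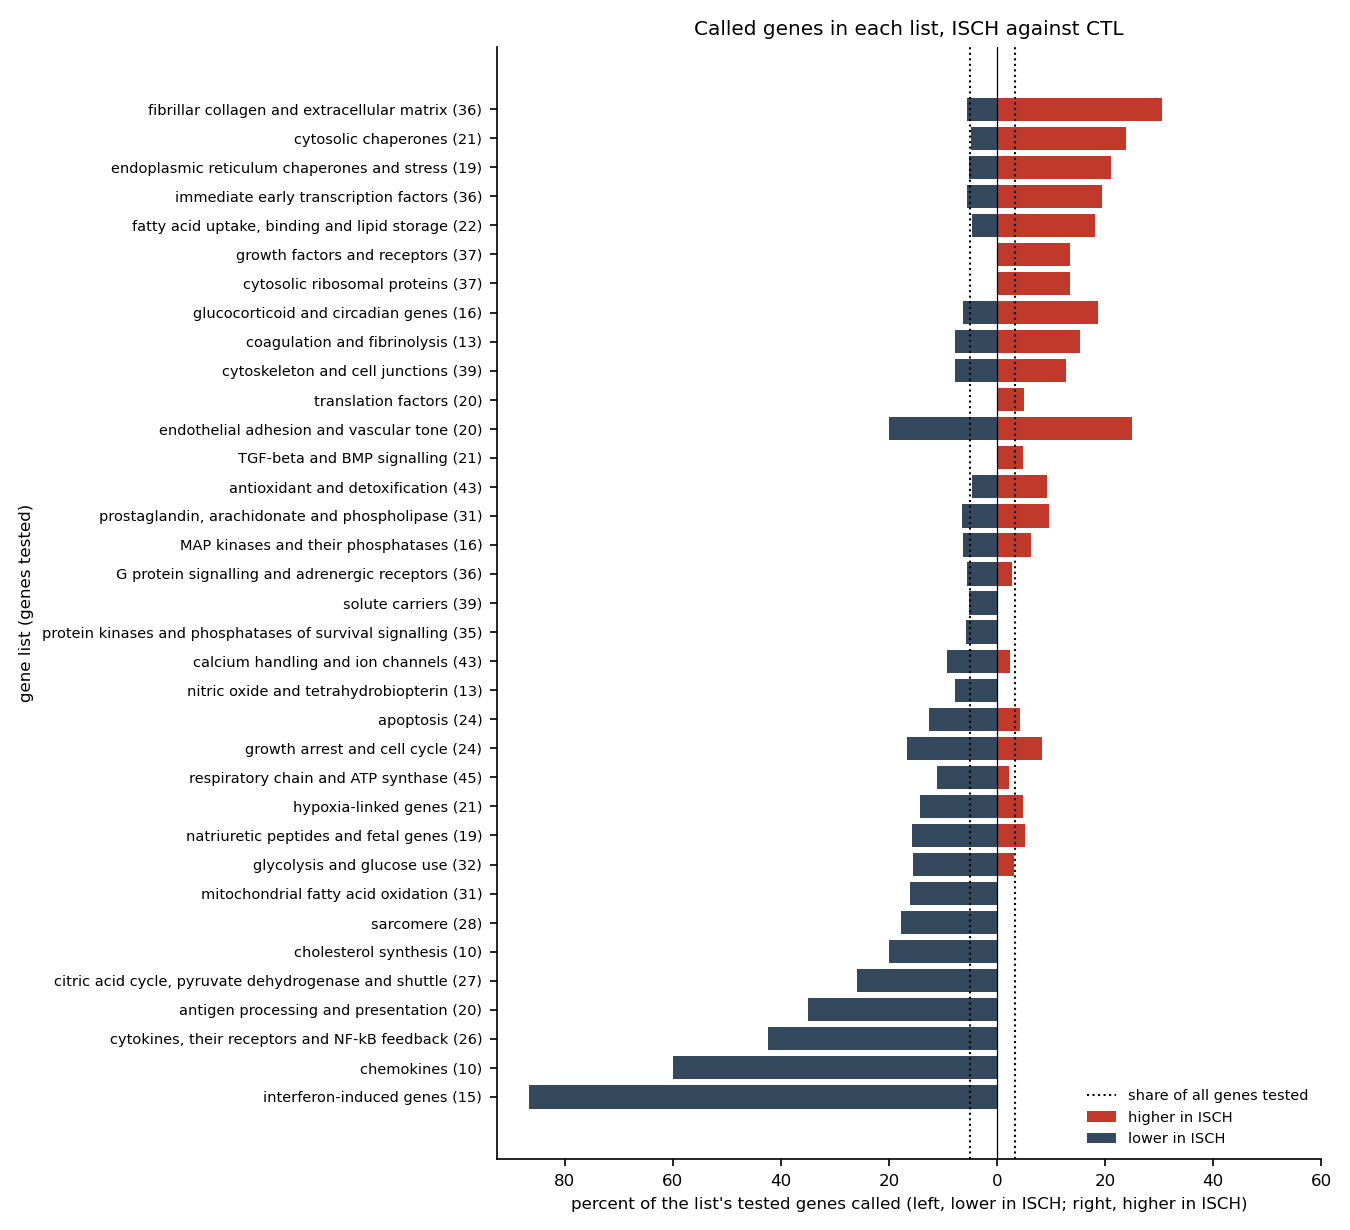
Percent of each list's tested genes called higher (red, right) or lower (blue, left) in ISCH than in CTL, with the number of genes tested after each name and dotted lines at the shares of all 3155 genes (3.39% and 4.91%). Interferon-induced genes (86.7%) and chemokines (60%) have the longest bars to the left, and fibrillar collagen and matrix genes (30.6%) the longest to the right.

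Several early response genes rose. Of 36 genes in the list of immediate early transcription factors 7 rose (19.4%) and 2 fell (5.56%), with a median of 0.29. Jun, a subunit of the transcription factor AP-1, had 5753, 10395, 10554, 8980.4 and 6017 in ISCH hearts, against 898, 1758, 1265, 1504 and 1211 in CTL hearts. The groups did not overlap, and Jun was 6.24-fold higher (2.64 ± 0.22, adjusted p = 3.9e-10). Its partner Fos had 17581, 16616, 14591, 17024 and 12806 in ISCH hearts and 5581, 4897, 6640, 4777 and 7652 in CTL hearts (1.28 ± 0.19, adjusted p = 2.1e-05). Klf4, a zinc finger factor of vessels and muscle, had 2860.3, 3477, 3213, 2505 and 2837 in ISCH hearts and 783, 667, 729, 1136 and 705 in CTL hearts (1.96 ± 0.28, adjusted p = 8.9e-06). In Jun, Fos and Klf4 every ISCH array exceeded every CTL array. The orphan nuclear receptor gene Nr4a1 had 8672, 6048, 5831, 5129 and 6631 in ISCH hearts and 2434, 2600.5, 1798, 2494 and 2840.3 in CTL hearts (1.41 ± 0.19). Egr1, another zinc finger factor, rose by 0.83 ± 0.23, with ISCH 1 at 7025 inside the CTL range of 6200 to 9023 and the other ISCH arrays at 15646 to 21269. Its call ended without any of 3 arrays (0.71 without ISCH 3), with median centring and with the actin ratio. Nr4a2 (1.14), named after its value was seen, and Rgs4 (1.68), a brake on G proteins, were the other risen members. Rgs4 is not a transcription factor, and it is counted in the G protein list as well. Rgs4 is dim (204 ± 51.0 in ISCH and 54.6 ± 33.3 in CTL, mean ± SD, n = 5). Its call ended with the added-transcript covariate and with the actin ratio. It was tested in only 6 of the fits that left out 1 array, and its call was lost in 2 of the 6 (1.34 without CTL 2).

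Not every early gene was higher. Atf3, a stress factor, was bright in both groups, with 6811 ± 1030.3 in ISCH hearts and 7020.2 ± 910.2 in CTL hearts (mean ± SD, n = 5), and was not called (-0.11 ± 0.18). Btg1, an anti-proliferative gene, had 2059.6, 2478, 2380.4, 2196 and 2256 in ISCH hearts and 3525, 4828, 3408, 3565 and 3299 in CTL hearts and fell by 0.68 ± 0.13 (adjusted p = 0.00053). The RNA-decay gene Zfp36 gave -0.54 ± 0.21 without a call, but its other probe set was called lower at -1.02. Among 16 MAP kinases and their phosphatases, close to the background at 1 up and 1 down, Dusp1 stood out. This phosphatase, which switches off stress kinases, had 3541, 3885, 3446, 2854 and 2686 in ISCH hearts and 956, 1031, 1194, 1436 and 1095 in CTL hearts, 2.98-fold higher (1.58 ± 0.17, adjusted p = 7.9e-08). Of 35 protein kinases and phosphatases of survival signalling, the pathways often linked to preconditioning, 0 rose and 2 fell in limma (5.71%), with 3 higher and 6 lower at an unadjusted p under 0.05. The 2 were Jak2, the kinase below many cytokine receptors (-1.26 ± 0.25, adjusted p = 0.00082), and Prkar1a, a regulatory subunit of protein kinase A (-0.52 ± 0.12, adjusted p = 0.005). Both calls ended with the added-transcript covariate.

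Some chaperones rose strongly. Of the cytosolic and mitochondrial list, with 21 tested, 5 rose (23.8%) and 1 fell (4.76%). Hspa1a, the inducible Hsp70, had 25033, 24667, 27806, 24257 and 14602 in ISCH hearts, against 2363, 4668, 10208, 4623 and 4992 in CTL hearts. CTL 3 was the highest of its group, and every ISCH array lay above it (2.07 ± 0.32, adjusted p = 2.6e-05). Hsph1, the Hsp110 that recharges Hsp70, had 2743, 3217, 5053, 3134 and 2756 in ISCH hearts and 734, 516, 601, 441 and 586 in CTL hearts, 5.85-fold higher (2.55 ± 0.18, adjusted p = 1.5e-11). Dnajb1, an Hsp40 that delivers proteins to Hsp70, had 1897, 1712, 1760.1, 2005 and 1760 in ISCH hearts and 396, 551, 741, 525 and 669 in CTL hearts (1.72 ± 0.25, adjusted p = 1.5e-05). A second Hsp40 gene, Dnaja1, rose by 0.94 ± 0.23, with CTL 3 (5655) inside the ISCH range of 5173 to 10645. The mitochondrial Hspd1 rose by 0.49 ± 0.14 and lost its call in 3 of 10 fits that left out 1 array (0.41 without ISCH 3), with median centring and with the actin ratio. The one that fell was Hspb6, a small heat shock protein of muscle (-0.58 ± 0.15). Its call was lost with median centring and on the values as deposited, in which the groups overlapped. The small heat shock gene Cryab was not called (-0.23 ± 0.17). Hspb1, another, was not called at its brightest probe set (0.60 ± 0.26), but was called higher on the values as deposited, and 1 of its 4 probe sets, which ran from 0.25 to 1.48, was called higher. Calls of Dnaja1, Hspd1 and Hspb6 ended with the added-transcript covariate.

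Heat shock factor binds inverted repeats, which were searched for as GAANNTTCNNGAA or TTCNNGAANNTTC. Of the 5 risen chaperones 3 held a match in the same 300-base windows (Hsph1, Dnaja1 and Hspd1), and of 11 uncalled chaperones with a window 2 did, Hspe1 and Chordc1. The windows of Hspd1 and Hspe1 overlap on opposite strands and share the same element, so 1 stretch of DNA is counted for both. The element was found in 0.798% of all windows and in 0.607% of those of genes tested here. Hspa1a and Dnajb1 held no match of these letters in this window, which says nothing of the factor. The stretch of Hsph1 from 150 bases before to 10 after its start is shown as the strongest riser of the list, with the element in capitals (chr12:10427218-10427377, plus strand, GRCr8, RefSeq).
Hsph1: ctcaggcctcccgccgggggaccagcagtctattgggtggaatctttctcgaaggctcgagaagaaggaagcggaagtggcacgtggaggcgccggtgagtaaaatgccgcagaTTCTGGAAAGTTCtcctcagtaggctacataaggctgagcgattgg

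In the endoplasmic reticulum, where secreted proteins fold, 4 of 19 chaperone and stress genes rose (21.1%) and 1 fell (median 0.31). Ddit3, the stress factor CHOP, had 1125, 2501, 1688, 2081 and 1649 in ISCH hearts and 839, 776, 754, 1460.1 and 1088 in CTL hearts, and its groups overlapped (0.93 ± 0.22, adjusted p = 0.007). Ppp1r15a, or Gadd34, which restores translation after stress, had 4544, 3161, 3074, 3442 and 2811 in ISCH hearts and 1519.9, 2149, 2713, 2107 and 2146 in CTL hearts, without overlap (0.75 ± 0.16, adjusted p = 0.0025). The fallen member was Vcp, an ATPase that extracts misfolded proteins (-0.46 ± 0.13). Calreticulin, Calr (0.15 ± 0.20), and the isomerase gene P4hb (-0.19 ± 0.11) were not called. The chaperone gene Hspa5 (0.58 ± 0.17) and the isomerase gene Pdia6 (0.48 ± 0.14) rose with overlapping signals, and leaving out 1 array ended the calls of Hspa5 (6 of 10 fits, 0.45 without CTL 3), Pdia6 (5 of 10 fits, 0.40 without ISCH 4) and Vcp (2 of 10 fits, -0.37 without ISCH 1). With the added-transcript covariate the calls of Ppp1r15a, Vcp, Hspa5 and Pdia6 ended, with median centring those of Ddit3, Hspa5 and Pdia6, and with the actin ratio those of Hspa5 and Pdia6.

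Matrix genes had the largest share of risen members among the process lists. Of 36 genes of fibrillar collagen and extracellular matrix 11 rose (30.6%) and 2 fell (5.56%), with a median of 0.49. Col3a1, a fibrillar collagen of vessels and scars, had 6400.3, 5145, 9913, 11259 and 8123 in ISCH hearts and 2690, 3562, 3324, 3564 and 3447 in CTL hearts. The groups did not overlap (1.23 ± 0.33, adjusted p = 0.014). Col5a1, which starts collagen fibrils, had 1562, 1378, 1698, 2251 and 1839 in ISCH hearts and 647, 731, 733, 1033 and 1008 in CTL hearts (1.14 ± 0.20, adjusted p = 0.00019). Serpinh1, the collagen chaperone Hsp47, had 1595, 1440.3, 2759, 2345 and 1725 in ISCH hearts and 859.8, 859, 673, 1088 and 1173 in CTL hearts (1.14 ± 0.20, adjusted p = 0.00014). Neither pair of groups overlapped. Col5a2 rose by 0.84 ± 0.21, and the proteoglycan gene Dcn by 0.65 ± 0.17, with signals of 47218, 20749, 30803, 28106 and 31626 in ISCH hearts and 12661, 14430.3, 19458, 16008 and 13747 in CTL hearts. P4ha1, an enzyme that hydroxylates collagen, rose by 0.67 ± 0.20 and lost its call in 5 of 10 fits that left out 1 array (0.62 without ISCH 3). Col15a1 (0.95) and the lysyl hydroxylase gene Plod1 (0.81) were named after their values were seen. Col1a1 rose by 1.31 ± 0.38, with signals of 8993, 6112, 11498, 10565 and 11746 in ISCH hearts and 4307, 4305, 1939.5, 5491 and 3847 in CTL hearts, and lost its call in 3 of 10 such fits (1.08 without CTL 3).

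The matrix genes that fell were Timp1, an inhibitor of matrix proteases, and Lamb2, a basement membrane laminin. Timp1 had 854, 631, 1008, 674 and 949.8 in ISCH hearts and 1507, 1651, 1755, 997 and 1919 in CTL hearts (-0.85 ± 0.20, adjusted p = 0.005). CTL 4 lay inside the ISCH range. Lamb2 gave -0.85 ± 0.22, with a second probe set at -0.03. The bright matrix gene Mgp was not called (0.01 ± 0.31). Sparc was not called at its brightest probe set (0.09 ± 0.22), but 2 of its 4 probe sets, which ran from 0.09 to 0.96, were called higher. Of 10 fibroblast markers, some shared with the matrix list, 5 rose and 0 fell (median 0.62), and the list's summed signal was 37021 to 70789 in ISCH arrays and 23346 to 29875 in CTL arrays. The part of fibroblast RNA in the matrix result was not tested. The fibroblast genes Lum (0.59 ± 0.25) and Fn1 (0.54 ± 0.28) were not called. With the added-transcript covariate the calls of Col3a1, Col5a2, Dcn, P4ha1, Col1a1, Col1a2, Vim, Timp1 and Lamb2 ended, while those of Col5a1 and Serpinh1 held in every alternative fit. Median centring ended the call of P4ha1, and the actin ratio those of P4ha1 and Col1a1.

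Growth factors and their receptors rose in 5 of 37 cases (13.5%), and 0 fell in limma (median 0.07), with 9 higher and 3 lower at an unadjusted p under 0.05. Nrp1, a co-receptor for vascular endothelial growth factor and semaphorins, had 750.3, 929, 1817, 1124 and 1074 in ISCH hearts and 446, 278, 479.5, 569 and 424 in CTL hearts (1.34 ± 0.20, adjusted p = 2.2e-05). Igf1, insulin-like growth factor, had 613, 451, 891, 754 and 859 in ISCH hearts and 269, 268, 434, 355 and 295 in CTL hearts (1.11 ± 0.25, adjusted p = 0.0044), but other Igf1 probe sets reached down to -0.51. Igfbp3, its main carrier, had 860.1, 636, 1011, 855 and 783 in ISCH hearts and 335, 479, 278, 509 and 332 in CTL hearts (1.12 ± 0.23, adjusted p = 0.0014). The receptor gene Notch1 had 1113, 1106, 1347, 1133 and 1136 in ISCH hearts and 613, 632, 753, 606 and 619 in CTL hearts (0.91 ± 0.19, adjusted p = 0.0014). In these 4 genes every ISCH array lay above every CTL array. Igfbp5 rose by 1.24 ± 0.35, a call lost in 4 of 10 fits that left out 1 array (1.08 without CTL 3) and with the actin ratio as a covariate. Vegfa, which hypoxia is known to induce, was not called (-0.48 ± 0.21, with 2370.2 ± 494 in ISCH and 3408 ± 748 in CTL, mean ± SD, n = 5), nor was Vegfb (-0.36 ± 0.13). Of 21 genes of TGF-beta and BMP signalling 1 rose, the follistatin-like gene Fstl1 (1.05 ± 0.26), and Tgfb1 was not called (-0.26 ± 0.22). Calls of Igf1, Notch1, Igfbp5 and Fstl1 ended with the added-transcript covariate.

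**Figure D3:**
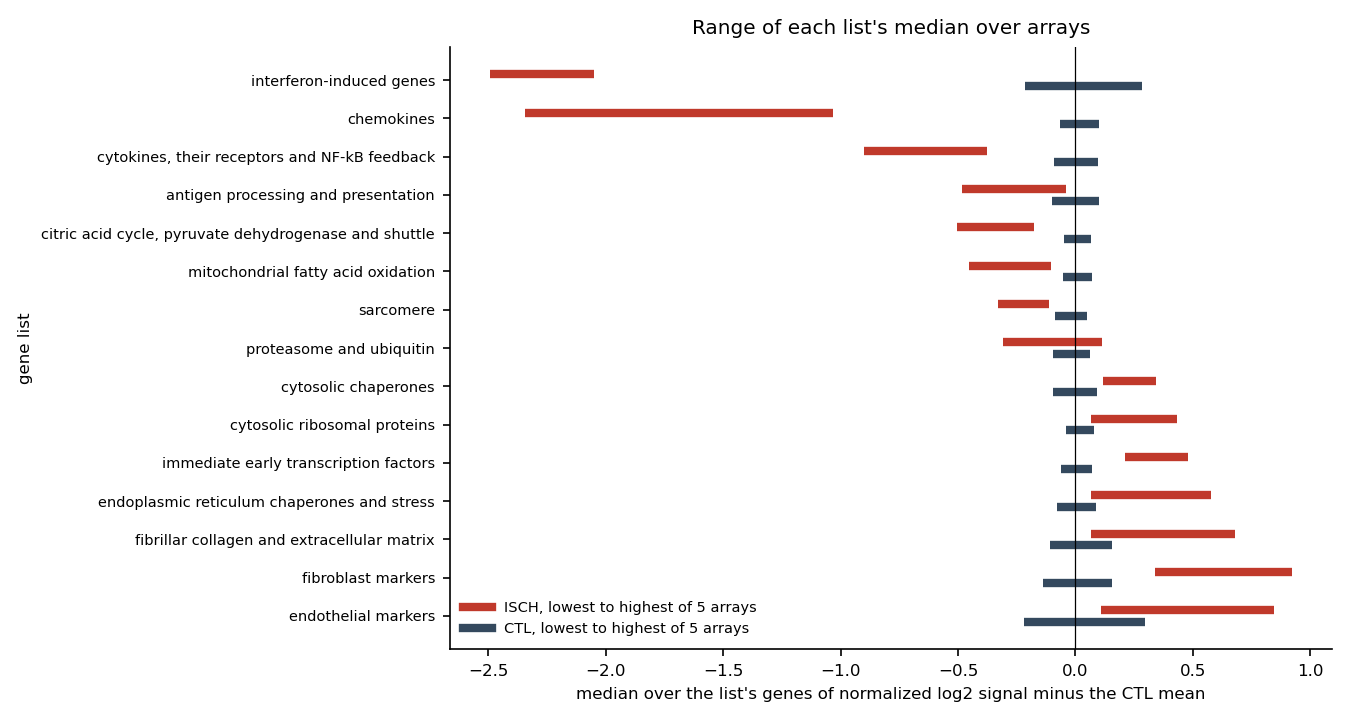
Median over each list's genes of the normalized log2 signal minus the CTL mean of the gene, drawn from the lowest to the highest of the 5 ISCH arrays (red, upper bar) and of the 5 CTL arrays (blue, lower bar). Interferon-induced genes run from -2.49 to -2.05 in ISCH arrays and from -0.21 to 0.28 in CTL arrays, while proteasome genes overlap.

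Single enzymes of glucose use fell. Among the 32 genes of glucose use and glycolysis, 5 fell (15.6%) and 1 rose (3.12%), with a median of -0.15. Pfkfb3, which makes the strongest activator of phosphofructokinase, had 101, 103, 136, 203 and 192 in ISCH hearts and 1089, 957, 830, 1230.2 and 727 in CTL hearts. The groups did not overlap, a 6.12-fold fall (-2.61 ± 0.29, adjusted p = 1.6e-07). Phosphofructokinase, the step it activates, fell too. The muscle form Pfkm had 7243, 6358, 4769.7, 5882 and 5761 in ISCH hearts and 8015, 8044, 7788, 8416 and 7949 in CTL hearts (-0.51 ± 0.12, adjusted p = 0.0058), and the platelet form Pfkp gave -0.87 ± 0.22. Txnip, which restrains glucose uptake, was the one that rose. It had 2274, 1394, 1502, 1091 and 1489 in ISCH hearts and 567, 648, 467, 602 and 505 in CTL hearts (1.47 ± 0.27, adjusted p = 0.00036). Aldoa (-0.61 ± 0.18) and the lactate and pyruvate carrier gene Slc16a1 (-0.79 ± 0.24) fell, with calls lost in 5 and 6 of 10 fits that left out 1 array. The bright glycolytic genes Ldhb (-0.24 ± 0.12), Pkm (-0.13 ± 0.12) and Pgk1 (-0.05 ± 0.14) were not called. Among 21 hypoxia-linked genes 3 fell (14.3%) and 1 rose (4.76%).

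Some mitochondrial fuel genes fell by less than 2-fold. Of 27 genes of the citric acid cycle, pyruvate dehydrogenase and shuttles 7 fell (25.9%) and 0 rose (median -0.38). Fatty acid oxidation had 5 fallen and 0 risen of 31 genes (16.1% fallen, median -0.31), and of 45 genes of the respiratory chain and ATP synthase 5 fell (11.1%) and 1 rose (2.22%), with a median of -0.11 that turned to 0.03 on the values as deposited. Got1, the cytosolic transaminase of the malate shuttle, had 5804, 5219, 4556, 4506 and 5211 in ISCH hearts and 7967, 7622, 7414, 6530 and 6465 in CTL hearts (-0.55 ± 0.13, adjusted p = 0.0056). Sdha, which serves both the cycle and the respiratory chain, had 6257, 5975, 5372, 6000.2 and 5922 in ISCH hearts and 7963, 8545, 8873, 7306 and 7392 in CTL hearts (-0.50 ± 0.14, adjusted p = 0.019). Ndufs1, a subunit of respiratory complex I, had 1132, 1154, 1025, 1019 and 807 in ISCH hearts and 2018, 2005, 1806, 2166 and 1633 in CTL hearts (-0.83 ± 0.22, adjusted p = 0.013). Every ISCH array lay below every CTL array in Got1, Sdha and Ndufs1. Citrate synthase, Cs, had 2869, 3059, 1962, 3288 and 2449.6 in ISCH hearts and 3728, 4631, 5124, 3748 and 3746 in CTL hearts (-0.61 ± 0.17, adjusted p = 0.017).

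The 5 fallen genes of fatty acid oxidation also changed by less than 2-fold. Acadm, the medium-chain dehydrogenase, had 3868, 6248, 5131, 6264 and 4539.7 in ISCH hearts and 10677, 7479, 7515, 8893 and 8244 in CTL hearts (-0.82 ± 0.22, adjusted p = 0.015). Cpt2, which completes the entry of fatty acids into mitochondria, had 4134, 2560.4, 1521, 2464 and 1743 in ISCH hearts and 3711, 4145, 4607, 3659 and 4176 in CTL hearts, with ISCH 1 inside the CTL range (-0.76 ± 0.19, adjusted p = 0.01). Hadhb (-0.50) and Cpt1b (-0.42) of the same pathway and Bdh1 (-0.94) of ketone use were the other 3. The bright gene Acaa2 (-0.43 ± 0.20) was not called, nor was the exchanger gene Slc25a4 (-0.29 ± 0.13). Leaving out 1 array ended the calls of Sdha (2 of 10 fits, -0.46 without CTL 3), Cs (2 of 10 fits, -0.49 without ISCH 3), Acadm (1 of 10 fits, -0.72 without CTL 1), Cpt2 (1 of 10 fits, -0.61 without ISCH 3), Hadhb (4 of 10 fits, -0.41 without CTL 3), Cpt1b (7 of 10 fits, -0.32 without ISCH 3), Bdh1 (1 of 10 fits, -0.72 without ISCH 3) and Vdac1 (6 of 10 fits, -0.80 without ISCH 1). With the added-transcript covariate the calls of Got1, Got2, Sdha, Cs, Ndufs1, Acadm, Cpt1b, Bdh1, Vdac1, Pfkm, Pfkp, Txnip, Aldoa and Slc16a1 ended. Median centring ended those of Got2, Sdha, Acadm, Hadhb, Cpt1b and Aldoa. The actin ratio as a covariate ended those of Sdha, Cs, Hadhb, Cpt1b, Vdac1 and Aldoa. On the values as deposited the calls of Got2, Sdha, Cpt1b and Aldoa ended, and with only the 2 groups fitted those of Hadhb and Cpt1b.

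Lipid binding and storage genes changed in single members. Of 22 tested, 4 rose (18.2%) and 1 fell (4.55%). Fabp4, a fatty acid binding protein of fat cells and capillary endothelium, had 586, 813, 925, 884 and 927 in ISCH hearts and 149, 181, 184, 259.6 and 217 in CTL hearts (1.97 ± 0.34, adjusted p = 0.00018). Fabp5, its relative, had 911, 624, 1230.4, 752 and 1113 in ISCH hearts and 288, 264, 364, 309 and 365 in CTL hearts, 2.84-fold higher (adjusted p = 3.5e-06). Neither gene's groups overlapped. Of 4 adipocyte markers tested, Fabp4 was the only one called, with Lipe at 0.42 ± 0.18 and Lep at 0.29 ± 0.23. G0s2, which blocks triglyceride breakdown, had 413, 309.6, 121, 189 and 309.5 in ISCH hearts and 15.2, 8.30, 43.3, 12.4 and 15.3 in CTL hearts, the CTL values lying near the floor of the array. Mgll, a lipase of monoglycerides, rose by 1.03 ± 0.26, with ISCH 1 far above the rest (2116, against 685 to 890 in the other ISCH arrays and 334 to 640 in CTL). Gpam, the first enzyme of triglyceride synthesis, fell by 1.99 ± 0.56 with ISCH signals as far apart as 51.2 and 528, and lost its call in 3 of 10 fits that left out 1 array (-1.60 without ISCH 1). The heart's own binding protein gene Fabp3 (-0.15 ± 0.11) and the lipase gene Lpl (-0.26 ± 0.12) were not called. Fdft1, which commits to sterol synthesis, had 124, 292, 109, 144 and 136 in ISCH hearts and 1010.3, 564, 471, 728 and 861 in CTL hearts (-2.13 ± 0.47, adjusted p = 0.0028), but its other probe sets reached 0.20. It was 1 of 2 genes that fell among 10 of cholesterol synthesis (20%). Calls of Mgll, Gpam and Fdft1 ended with the added-transcript covariate.

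Contractile and calcium genes include very bright probe sets, and 2 of them turned direction with the scaling. Of 28 sarcomere genes 5 fell (17.9%) and 0 rose (median -0.25), and of 43 genes of calcium handling and ion channels 4 fell (9.3%) and 1 rose (2.33%). Without Myh6 and Atp2a2, whose direction turned, 4 sarcomere genes and 3 calcium genes fell. Casq2, which stores calcium inside the muscle cell, had 3108, 3124, 2453, 4010.4 and 3047 in ISCH hearts and 5862, 6017, 5229, 6099 and 5194 in CTL hearts. The groups did not overlap (-0.85 ± 0.15, adjusted p = 0.00028). Ryr2, the channel that releases this store, had 333, 797, 542, 898 and 716 in ISCH hearts and 1338, 1379, 1520, 1535 and 1195 in CTL hearts (-1.09 ± 0.34, adjusted p = 0.036). Every ISCH array was below every CTL array, with ISCH 1 the lowest, and the call was lost in 6 of 10 fits that left out 1 array (-0.85 without ISCH 1). Slc4a3, an anion exchanger, had 2948, 1329, 1292, 1375 and 1417 in ISCH hearts and 2366, 2291, 3109.6, 2510.1 and 2919 in CTL hearts, with ISCH 1 inside the CTL range (-0.67 ± 0.17), and was not called with only the 2 groups fitted. Kcnj8, a pore subunit of the ATP-sensitive potassium channel, was the one that rose. It had 320, 319, 417, 483 and 432 in ISCH hearts and 111, 112, 166, 162 and 163 in CTL hearts (1.31 ± 0.30, adjusted p = 0.0049), without overlap. Phospholamban, Pln, was not called (-0.29 ± 0.15).

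Myh6, the fast myosin heavy chain of rodent ventricle, had 48173, 32445, 33351, 32889 and 31081 in ISCH hearts and 33922, 33258, 43105, 26822 and 30719.9 in CTL hearts. These signals overlapped, while the normalized values gave -0.42 ± 0.11 (adjusted p = 0.012) and the values as deposited 0.08. Atp2a2, the calcium pump SERCA2, had 71295, 42864, 47828, 42613 and 44458 in ISCH hearts and 31655, 44624, 55009, 31220 and 33941 in CTL hearts. It gave -0.32 ± 0.10 after normalization but 0.35 as deposited and 0.26 with median centring, and its 4 probe sets ran from -0.37 to 0.68, with 1 called in each direction. The 3 probe sets of Myh6 ran from -0.72 to -0.42 after normalization, with 2 called lower. Median centring ended the call of Myh6 without turning its direction. Since the scalings differ, no direction can be given for either gene. Des, the muscle filament desmin, had 8752, 10356, 7829.7, 9196 and 9528 in ISCH hearts and 12991, 10696, 12403, 10156 and 12385 in CTL hearts (-0.52 ± 0.14), a call that ended with both other scalings. The sarcomere genes Actc1 (-0.15 ± 0.12) and Tpm1 (-0.06 ± 0.10) were not called. Neither the slow myosin gene Myh7 (-0.17 ± 0.17) nor the natriuretic peptide genes Nppa (-0.13 ± 0.36) and Nppb (-0.41 ± 0.16), which mark a stretched or failing heart, were called. Of 13 cardiomyocyte markers 4 fell after normalization, Myh6 and Atp2a2 among them (median -0.19), but the median was 0.21 as deposited and 0.11 with median centring. Calls of Casq2, Ryr2, Kcnj8, Des, Myh6, Atp2a2, Tmod1 and Ckmt2 ended with the added-transcript covariate.

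**Figure D4:**
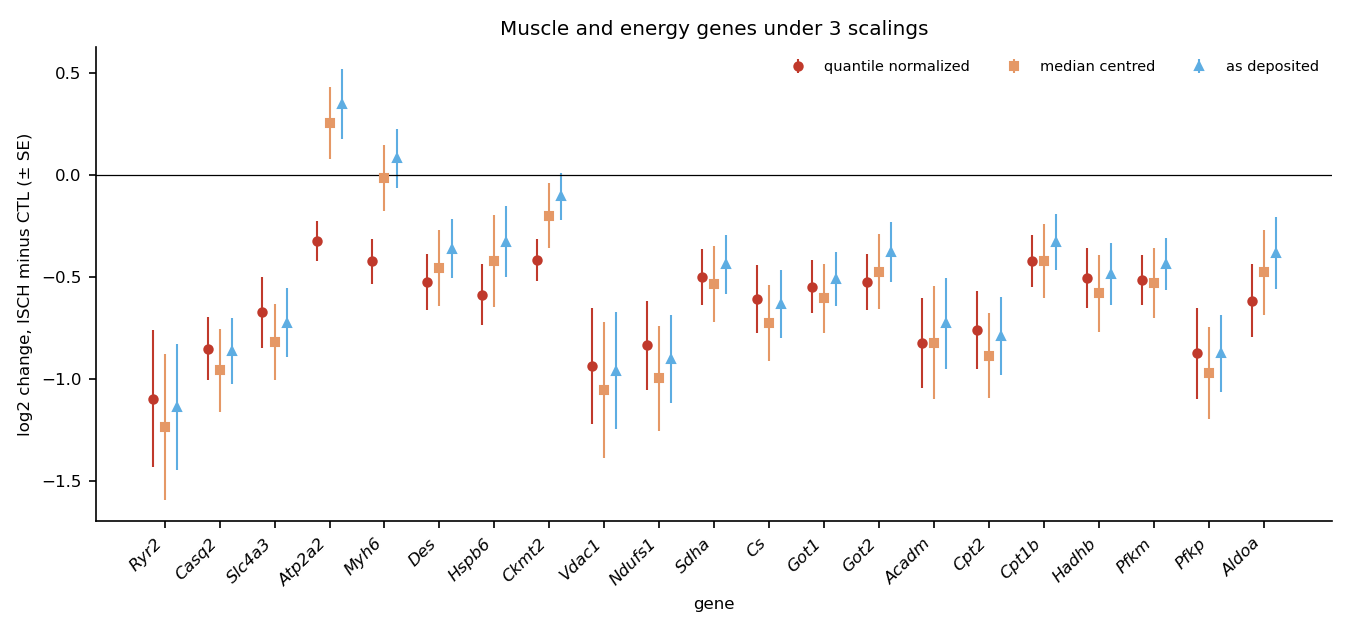
Log2 change (± SE, 5 arrays per group) of 21 muscle and energy genes in ISCH minus CTL from quantile-normalized (red circles), median-centred (orange squares) and deposited (blue triangles) values. Atp2a2 goes from -0.32 to 0.35 and Myh6 from -0.42 to 0.08, whereas Casq2 and Ndufs1 lie below 0 in each.

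Ribosomal protein genes that were called all rose, by small amounts. Of 37 tested, 5 rose (13.5%) and 0 fell, and 26 lay above 0 (median 0.25). Rps16 had 5052, 6964, 7747, 6328 and 6416 in ISCH hearts and 4805, 4723, 3870.5, 4991 and 4520.1 in CTL hearts (0.48 ± 0.11, adjusted p = 0.0034), without overlap. Rpl21 rose by 0.52 ± 0.15. Rplp0 (-0.06 ± 0.13) and Rps29 (-0.07 ± 0.19) were the brightest not called. The elongation factor gene Eef1a1 (0.55 ± 0.16) was the 1 called of 20 translation factors. With median centring the calls of Rps16, Rpl21, Rpl17, Rpl39, Rps23 and Eef1a1 ended. The added-transcript covariate and the actin ratio each ended all of these calls but that of Rps16. On the values as deposited the calls of Rpl17 and Rps23 ended, and with only the 2 groups fitted those of Rpl17, Rpl39 and Rps23. Leaving out 1 array ended those of Rpl21 (3 of 10 fits, 0.48 without ISCH 3), Rpl17 (8 of 10 fits, 0.60 without ISCH 3), Rpl39 (7 of 10 fits, 0.50 without CTL 3), Rps23 (6 of 10 fits, 0.36 without CTL 3) and Eef1a1 (3 of 10 fits, 0.48 without ISCH 1). Many ribosomal genes have near-identical pseudogenes, which these probes may also read.

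Redox genes went both ways. Of 43 antioxidant and detoxification genes 4 rose (9.3%) and 2 fell (4.65%). Nqo1, a quinone reductase and target of the factor Nrf2, had 338, 697, 382, 606 and 421 in ISCH hearts and 4229, 1785, 1166, 1862 and 1876 in CTL hearts, with CTL 1 far above the rest and no overlap (-2.03 ± 0.27, adjusted p = 2.8e-06). Gpx3, the secreted glutathione peroxidase, had 4511, 6044, 7267, 7059.9 and 6142 in ISCH hearts and 3243, 3248, 3440.2, 3981 and 3964 in CTL hearts (0.77 ± 0.21, adjusted p = 0.015), a call lost with median centring and without ISCH 3 (0.71). Cyp4b1, a cytochrome P450 of lipid and foreign compounds, had 219.8, 308, 337, 325 and 322 in ISCH hearts and 50.2, 40.2, 21.2, 118 and 89.0 in CTL hearts (2.05 ± 0.44, adjusted p = 0.002), again without overlap. Gsta1, a glutathione transferase, had 389.9, 371, 382, 333 and 357 in ISCH hearts and 201, 172, 199, 193 and 203 in CTL hearts (0.82 ± 0.22). Gpx1 (-0.38 ± 0.15), Sod1 (0.06 ± 0.24) and haem oxygenase, Hmox1 (0.20 ± 0.19), were not called. Maoa, which breaks down noradrenaline in mitochondria, had 1356, 3559.8, 2056, 2829.6 and 2356 in ISCH hearts and 5727, 4139.6, 5648, 4143 and 5119.8 in CTL hearts and fell by 1.07 ± 0.25. Among prostaglandin and phospholipase genes 3 of 31 rose (9.68%) and 2 fell (6.45%). Anxa1, an anti-inflammatory annexin, had 578, 453, 582, 508 and 522 in ISCH hearts and 229.7, 324, 341, 363 and 330.1 in CTL hearts (0.73 ± 0.19), and the phospholipase gene Pla2g5 gave -0.85 ± 0.21. Ptgs2 fell by 1.33 ± 0.35, a call that ended without ISCH 1 (-0.98). With the added-transcript covariate the calls of Gpx3, Gsta1, Maoa, Anxa1, Pla2g5 and Ptgs2 ended.

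Genes of the cell cycle, cell death and cell shape went both ways. Ccnd1, a cyclin that drives cells into division, had 422, 583, 722, 909 and 967 in ISCH hearts and 156, 271, 236, 473 and 341 in CTL hearts, with ISCH 1 inside the CTL range (1.28 ± 0.28, adjusted p = 0.0028). Of 24 genes of growth arrest and cell cycle 2 rose (8.33%) and 4 fell (16.7%), among the fallen the growth-arrest RNA gene Gas5 (-0.67 ± 0.15). Of 24 apoptosis genes 1 rose (4.17%), Casp2 (1.28 ± 0.30), and 3 fell (12.5%). Parp1, a DNA repair enzyme, fell by 0.72 ± 0.18, though a second probe set gave 0.11. Clu (-0.45 ± 0.18) and Capns1 (0.16 ± 0.16) were the brightest not called. Of 39 genes of the cytoskeleton and cell junctions 5 rose (12.8%) and 3 fell (7.69%). Actb, cytoplasmic beta actin, had 6303, 8155, 11249, 12748 and 7735 in ISCH hearts and 4114, 4181, 3732, 5119 and 4790 in CTL hearts (1.00 ± 0.19, adjusted p = 0.00061). Actg1, gamma actin, had 6699, 5421, 6275, 7481 and 5539.9 in ISCH hearts and 3049, 3535, 4066, 4104 and 3459 in CTL hearts (0.79 ± 0.22), and lost its call with median centring and in 2 of 10 fits that left out 1 array (0.72 without ISCH 4). Both were without overlap. Cd44, the hyaluronan receptor, had 221, 188, 198, 278 and 272 in ISCH hearts and 671, 501, 488, 699 and 557 in CTL hearts and fell by 1.29 ± 0.30. Calls of Gas5, Casp2, Parp1, Actg1 and Cd44 ended with the added-transcript covariate.

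The remaining process lists had few calls, with shares to be read against 3.39% risen and 4.91% fallen of all genes. Coagulation and fibrinolysis had 2 up (15.4%) and 1 down (7.69%) of 13, the fallen one being the thrombin receptor gene F2r (-0.86 ± 0.22). G protein signalling had 1 up (2.78%), Rgs4, and 2 down (5.56%) of 36, with Pde4b, which degrades cyclic AMP, at -0.96 ± 0.22. Glucocorticoid and circadian genes had 3 up (18.8%) and 1 down (6.25%) of 16, with Hsd11b1, which activates glucocorticoid, at 1.00 ± 0.27. The call of Hsd11b1 was lost with median centring and in 2 of 10 fits that left out 1 array (0.87 without CTL 3). Solute carriers had 0 up and 2 down (5.13%) of 39. The iron carrier gene Slc11a2 was at -0.64 ± 0.18 and the glucose carrier gene Slc2a4 at -0.40 ± 0.14, the second not called. Nitric oxide and tetrahydrobiopterin had 0 up and 1 down (7.69%) of 13. That one was Gch1, which makes the cofactor of nitric oxide synthases, with 264, 136, 175, 131 and 180.4 in ISCH hearts and 1365, 1439, 765, 882 and 865 in CTL hearts. Natriuretic peptides and fetal genes had 1 up (5.26%) and 3 down (15.8%) of 19, and 2 down without Atp2a2. Calls of F2r, Hsd11b1 and Slc11a2 ended with the added-transcript covariate.

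Markers of other cell types were read for the whole tissue. Of 7 endothelial markers 2 rose and 0 fell (median 0.66), with a summed signal of 3333 to 4534 in ISCH arrays and 1963 to 2966 in CTL arrays. Their part in the vessel results was not tested. Of 6 macrophage and neutrophil markers 1 fell, Cd14, and the summed signal was 1664 to 2327 in ISCH arrays and 1647 to 2307 in CTL arrays. Of 8 lymphocyte markers 0 were called in limma and 1 had an unadjusted p under 0.05, with sums of 1609 to 1747 in ISCH arrays and 1386 to 1716 in CTL arrays. The summed levels of both white blood cell lists thus overlapped between the groups. Of 8 smooth muscle and pericyte markers 1 fell, Des, and Acta2 was not called (0.63 ± 0.34). Of 8 nerve markers 1 rose, the myelin gene Pmp22, with 1202, 729.5, 1118, 1087 and 1042 in ISCH hearts and 295, 330.5, 441, 398 and 390.5 in CTL hearts (1.48 ± 0.27, adjusted p = 0.00036). Atrial, skeletal muscle, mast cell and red blood cell markers had 0 called of 6, 10, 3 and 3 in the limma fit, with 1, 1, 0 and 0 at an unadjusted p under 0.05.

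Of the 262 called genes 98 stood in no list. Among the fallen, Neurl3, a ubiquitin ligase gene, had 529, 397, 502, 601 and 468 in ISCH hearts and 1533, 1431, 1788, 1434 and 1786 in CTL hearts (-1.62 ± 0.17, adjusted p = 4.4e-08). Tnfrsf11b, the decoy receptor osteoprotegerin, had 41.7, 31.2, 140.5, 21.2 and 104 in ISCH hearts and 248, 244, 262, 136 and 305 in CTL hearts (-1.85 ± 0.41, adjusted p = 0.0028). Neurl3 groups were apart, while ISCH 3 of Tnfrsf11b lay inside the CTL range. Slfn5, a schlafen gene, had 748, 1684, 2669, 1928 and 2053 in ISCH hearts and 6768, 5287, 2981, 7014 and 5836 in CTL hearts (-1.67 ± 0.29). F2rl1, a protease-activated receptor, fell by 1.19 ± 0.23, Arrdc4, an arrestin-domain gene, by 1.32 ± 0.21, and Alas1, the first enzyme of haem synthesis, by 1.08 ± 0.21. Alas1 had 1676, 1287, 1388, 1259 and 1355 in ISCH hearts and 3515, 3748, 3059, 2523 and 2706 in CTL hearts, without overlap. Ugcg, which makes glucosylceramide, had 328, 410.4, 694, 551 and 400.3 in ISCH hearts and 1409.8, 1176, 768, 1181 and 993 in CTL hearts (-1.16 ± 0.27, adjusted p = 0.005). Rfx5, a factor that drives class II antigen genes, had 221, 54.3, 117, 87.9 and 159.5 in ISCH hearts and 285, 349, 315, 283 and 253 in CTL hearts (-1.27 ± 0.25, adjusted p = 0.00086). In both every ISCH array was below every CTL array. Tle4 (-1.11) and Tcp11l2 (-0.96) fell as well.

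Among the risen genes in no list, Aqp1, the water channel of capillary endothelium, had 2579, 1576, 2456, 2326 and 2279.9 in ISCH hearts and 760, 871, 1086, 900.5 and 881 in CTL hearts (1.36 ± 0.26, adjusted p = 0.00063). The lowest ISCH array exceeded the highest CTL array. Sparcl1, a matrix-associated glycoprotein, had 6471, 3585, 4523, 4284 and 4531 in ISCH hearts and 2287, 2526, 2489, 2682 and 2334 in CTL hearts (0.95 ± 0.18, adjusted p = 0.00066). Fbln5, an elastic fibre protein, had 474, 263, 475, 531 and 502 in ISCH hearts and 207, 170.2, 199.5, 266 and 185 in CTL hearts (1.01 ± 0.22), with ISCH 2 just inside the CTL range. Ppib, a cyclophilin that folds collagen, rose by 0.99 ± 0.30 and lost its call in 6 of 10 fits that left out 1 array (0.79 without CTL 3), with median centring and with the actin ratio. Pde1b (1.44), Entpd2 (1.33), Tns2 (1.22) and the membrane carbonic anhydrase gene Car4 (1.14) rose too. Gas7, a growth-arrest gene of the cytoskeleton, had 1529, 945, 1308, 997 and 1078 in ISCH hearts and 811, 547, 569, 464 and 809 in CTL hearts (0.93 ± 0.20), without overlap. A further 63 called probe sets carried no gene name here, 39 higher and 24 lower in ISCH. Calls of Tnfrsf11b, Slfn5, F2rl1, Alas1, Aqp1, Sparcl1, Pde1b, Entpd2, Tns2, Car4, Gas7, Ugcg and Tcp11l2 ended with the added-transcript covariate.

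ISCH hearts were then set against both trigger groups, which share the ISCH arrays with the comparison above but hold no CTL array. Against IPC_TRI, 270 genes were higher in ISCH (8.56%) and 265 lower (8.4%). Against APC_TRI, 234 were higher (7.42%) and 240 lower (7.61%). Of the 944 probe sets called against IPC_TRI 57.3% were higher in ISCH, and of the 810 called with median centring 69.3% were. Interferon-induced genes were lower in ISCH in 12 of 15 cases against IPC_TRI (median -1.37) and 13 of 15 against APC_TRI (median -1.56). Chemokines were lower in 7 and 5 of 10 cases. Cytosolic chaperones were higher in 6 of 21 cases against each trigger group, endoplasmic reticulum genes in 8 and 7 of 19, and matrix genes in 9 and 11 of 36. Ribosomal protein genes were higher in 9 and 10 of 37. Citric acid cycle genes had 3 higher and 4 lower of 27 against IPC_TRI, and 2 higher and 3 lower against APC_TRI.

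The order of the group means was not the same in every gene. Cxcl10 averaged 461 ± 86.4 in ISCH, 4878 ± 3058 in IPC_TRI, 5715 ± 2453 in APC_TRI and 12448 ± 2201 in CTL (mean ± SD, n = 5 each). The log2 difference was -3.24 ± 0.31 against IPC_TRI (adjusted p = 7.9e-09) and -3.53 ± 0.31 against APC_TRI (adjusted p = 1.1e-09), and both trigger means lay between those of ISCH and CTL. Cx3cl1 averaged 818 ± 273 in ISCH, 6811 ± 2529 in IPC_TRI, 7104 ± 2641 in APC_TRI and 3588 ± 498 in CTL, so both trigger means lay above the CTL mean. Its difference was -2.98 ± 0.32 against IPC_TRI and -3.06 ± 0.32 against APC_TRI. Icam1 averaged 2335 ± 695 in ISCH, 11799.7 ± 5088 in IPC_TRI, 11880.3 ± 2751 in APC_TRI and 11046 ± 783 in CTL, with -2.20 ± 0.28 against IPC_TRI and -2.30 ± 0.28 against APC_TRI.

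Jun averaged 8339.8 ± 2325 in ISCH, 1020.2 ± 319.7 in IPC_TRI, 1005 ± 255 in APC_TRI and 1327 ± 323 in CTL, with 3.00 ± 0.22 against IPC_TRI and 3.00 ± 0.22 against APC_TRI. Hsph1 gave 2.57 ± 0.18 and 2.97 ± 0.18 in the same order, and Hspa1a 2.17 ± 0.32 and 3.32 ± 0.32. Of the 4 group means of Jun, Hsph1 and Hspa1a, that of ISCH was the highest. Fabp4 averaged 827 ± 142 in ISCH, 136 ± 82.8 in IPC_TRI, 44.9 ± 31.5 in APC_TRI and 198 ± 42.0 in CTL, and its difference from APC_TRI was 4.01 ± 0.34 (adjusted p = 8.5e-10).

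Some genes called against CTL were not called against either trigger group. Fdft1 averaged 161 ± 74.7 in ISCH, 254 ± 88.7 in IPC_TRI, 254 ± 217 in APC_TRI and 727 ± 218 in CTL, with -0.56 ± 0.47 (adjusted p = 0.43) and -0.44 ± 0.47 (adjusted p = 0.57) against the triggers. Dcn averaged 31700.4 ± 9676 in ISCH, 42289 ± 15209 in IPC_TRI, 32384 ± 4445 in APC_TRI and 15261 ± 2642 in CTL, with -0.29 ± 0.17 and -0.20 ± 0.17. Cs gave -0.27 ± 0.17 and -0.19 ± 0.17, Sdha -0.17 ± 0.14 and -0.03 ± 0.14, and Got2 0.03 ± 0.14 and -0.02 ± 0.14, none called against a trigger group. A p that misses the threshold does not show that the levels are alike. The cell cycle inhibitor gene Cdkn1a, not called against CTL (-0.89 ± 0.40), averaged 663 ± 263 in ISCH, 2876 ± 1487 in IPC_TRI, 3477 ± 1047 in APC_TRI and 1184 ± 341 in CTL (-2.20 ± 0.40 and -2.47 ± 0.40, adjusted p = 0.00019 and 3.7e-05). Mean correlation with the other arrays of the group was 0.853 to 0.901 in IPC_TRI, lower than the 0.936 to 0.947 in APC_TRI. Trigger arrays had a beta-actin 3′ to 5′ log2 ratio of -0.98 to 0.05 in IPC_TRI and -0.70 to -0.01 in APC_TRI, against 0.25 to 0.42 in ISCH and -0.31 to 0.31 in CTL. The Gapdh 3′ to 5′ log2 ratio was 0.05 to 0.30 in IPC_TRI and 0.04 to 0.42 in APC_TRI. It was -0.22 to 0.22 in ISCH and -0.24 to 0.01 in CTL. The Gapdh means were higher in both trigger groups than in ISCH and CTL, while the beta-actin means were lower. With the beta-actin ratio as a covariate 253 and 298 probe sets were called in place of 944 and 837.

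**Figure D5:**
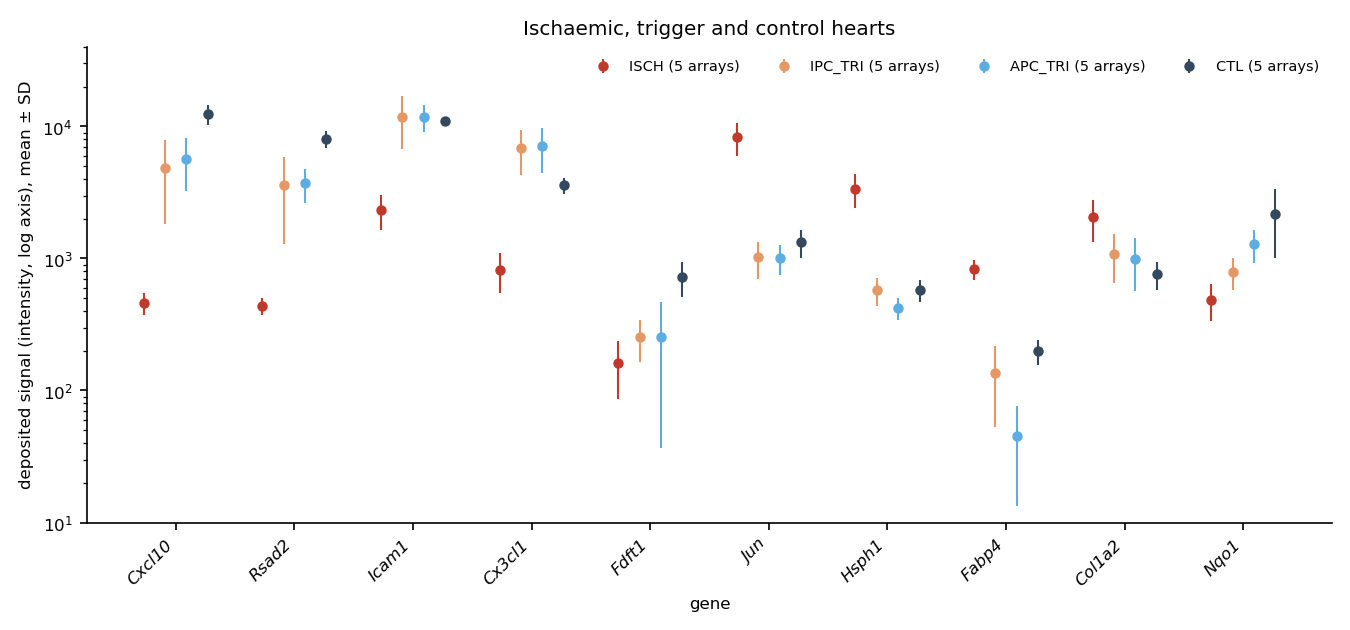
Deposited signal (log axis, mean ± SD of 5 arrays) of 10 genes in ISCH, IPC_TRI, APC_TRI and CTL hearts. Cxcl10 and Rsad2 step up through the trigger groups to CTL, Jun and Hsph1 are highest in ISCH, and Fdft1 has lower means in ISCH and both trigger groups than in CTL.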

How the data were processed

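Affymetrix rat arrays of left ventricle total RNA were read as the intensity values that the authors deposited, 1 linear signal per probe set. As deposited, each array had been scaled to a 2% trimmed mean near 501, and no detection calls come with it. The software that made the values is not given in the sources used here. From 8799 probe sets, 59 controls were left out, 7006 had 1 gene symbol, 308 several and 1426 none. Signals plus a pseudocount of 16 were taken to log2, quantile normalized over all 30 arrays, and probe sets in the lowest 40% by mean signal were left out. A gene is represented by its brightest tested probe set. Differences come from limma 3.58.1 in R 4.3.3 (1 mean per group over all 6 groups, intensity trend, moderated variance), with Benjamini-Hochberg adjusted p-values per comparison. Printed signals are deposited values, so they can differ in sign from the normalized change. Dim signals limit the precision, and an array has no read depth. The replicates are called biological in the labels, with no further detail of their source.

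Genes were named by rule. These were the 20 called genes per direction with the largest change and no overlap between groups, up to 6 called members per direction and 2 uncalled members of each list, 20 called genes per direction in no list, and Nppa, Nppb, Hspa1a, Hmox1, Ptgs2, Myh6, Fos and Jun. Against the triggers 5 per direction were added. The samples compared and the gene lists were chosen with earlier results of these data known. Alternatives changed the pseudocount, filter, scaling, array weights, covariates, groups fitted, replicate block and arrays left out. The fit was tested on simulated data. After each group's mean was subtracted, same-numbered ISCH and CTL arrays correlated at -0.138 to 0.134. For 2 of the 5 ISCH arrays the best CTL match had the same number. These values do not decide whether the replicate numbers pair the arrays, which the main fit treated as unpaired. Python 3.11.15 with pandas 2.3.3 and scipy 1.17.1 made the summaries, and matplotlib 3.10.9 the figures.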

Additional observations from a re-analysis of the deposited data

Results flagged for a closer look

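Dixon's criterion was applied to 404 groups of 5 arrays, for the genes of the report. Its chance rate of about 1 in 20 groups holds for independent, normally distributed values. These signals are linear, and the genes share arrays and were in part named for their results. That rate is therefore no yardstick here. In 33 of the 404 groups the highest or lowest array stood apart from the other 4. ISCH 1, the ISCH array least correlated with its group, was the one in 15 of the 33. It was high in the contractile genes Tpm1 (126052), Actc1 (118161), Atp2a2 (71295) and Myh6 (48173). It was also high in Calr (5839), Slc4a3 (2948), Mgll (2116), Tns2 (1315) and Mx2 (88.3). The same array was low in Sparc (12124), Slc16a1 (1152), Gas5 (588), Irf1 (357), Cyp4b1 (219.8) and Cdkn1a (205).

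Among the other ISCH arrays, ISCH 2 was low in Fbln5 (263) and high in Fdft1 (292), and ISCH 3 was high in Hsph1 (5053) and Notch1 (1347). ISCH 4 was high in Tmod1 (1378) and Pecam1 (968). ISCH 5 was low in Hspa1a (14602) and high in Irf7 (1230). Of the control arrays, CTL 1 was low in Col3a1 (2690) and high in Nqo1 (4229) and Pde1b (178). CTL 2 was high in Zfp36 (7378), Btg1 (4828) and Casp2 (184). CTL 3 was high in Notch1 (753) and G0s2 (43.3), CTL 4 was high in Klf4 (1136), and CTL 5 was low in RT1-S3 (1159). Each value is a deposited signal of 1 array.

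The bacterial control transcripts, which entered the fits only as a covariate in an alternative, averaged 12.0 in ISCH arrays and 10.8 in CTL arrays on the log2 scale. With that covariate 157 probe sets were called against CTL instead of 460. The part of these transcripts in the gene results was not separated from that of the protocol.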

How the results depend on the processing

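Against CTL, 460 probe sets were called. Array weights raised this to 933, and the added-transcript covariate lowered it to 157. The other alternatives gave counts within 1.5 times of 460, and leaving out 1 array gave 316 (without ISCH 3) to 453 (without ISCH 2) among the ISCH and CTL arrays. Against IPC_TRI the count of 944 became 253 with the actin ratio as a covariate and 317 with only the 2 groups fitted, and 773 to 1137 with 1 array left out. Against APC_TRI the count of 837 became 1284 with array weights and 298 with the actin ratio, and 621 to 962 with 1 array left out. The causes were not tested. Median centring moved the share called higher in ISCH against IPC_TRI to 69.3%, where it was 57.3%. The replicate block gave 447, 955 and 854 probe sets in the 3 comparisons, and 7 named genes lost their call. Of 193 called named genes, 124 held with any 1 array left out and 55 in every alternative, with 126 lost under the added-transcript covariate, 38 under median centring and 37 under the actin ratio. Direction turned for Atp2a2 (0.35 as deposited, 0.26 with median centring) and Myh6 (0.082 as deposited). List medians turned for the respiratory chain (0.0265 as deposited) and cardiomyocyte markers (0.21 as deposited, 0.11 with median centring). They also turned for nitric oxide genes (-0.016 with median centring, -0.057 with the actin ratio, -0.027 to 0.16 with 1 array left out). The last were cytoskeleton genes (-0.028 with median centring, -0.014 without 2 doubted arrays, -0.014 to 0.20 with 1 array left out). In all, 1052 of 1104 list medians under alternatives moved by less than the spread between arrays, 43 moved further and 9 turned. The 2 doubted arrays were IPC_TRI 5 and ISCH 1, each with the lowest mean correlation within its own group (0.853 and 0.905). The other IPC_TRI arrays, at 0.878 to 0.901, also lay below ISCH 1. Where a covariate differs between the groups, as both do, its fit also removes part of the difference between the groups.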

Other observations

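Single probe sets of a gene did not always move alike. Of 890 genes with more than 1 tested probe set, 106 were called, and in 91 of these all probe sets had the same sign. In 40 all probe sets were called in the same direction, and in 1, Atp2a2, another probe set was called in the opposite direction. For Gadd45a the probe sets ran from -0.65 to 0.59 in log2 change.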
